A study of Homo sapiens with 8 samples.

Results

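Small nucleolar RNAs (snoRNAs) and the spliceosomal RNA U11 were examined for binding by CTCF, a zinc finger protein best known for shaping chromatin. The set held 10 RNA genes, namely 9 snoRNA genes and RNU11, the gene of U11. They were chosen because a listed eCLIP peak overlapped their annotated span on the human build hg38, so the presence of a peak is how they were chosen and not a result. SNORA4 and SNORD18B, snoRNA genes with a peak in the senescent cells alone, were not in the set. In all, 344 annotated genes overlapped a peak in at least 1 of the 2 peak lists of the series.

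The cells were IMR90, a line of primary human lung fibroblasts, wild type in every library. Proliferating cells had no treatment. Cells called senescent, a state defined by lasting exit from the cell cycle, had been treated with an agent that the labels call ICM. Every senescent library had this treatment and no proliferating one did, so the state and the agent cannot be told apart. The cell cycle was not measured in the peak lists. The growth notes name the IMR90 isolates I79 and I83 without saying which library came from which. In eCLIP, ultraviolet light links proteins to the RNA they touch, RNase trims that RNA, and an antibody, here against CTCF, recovers what remains attached; an input library made without antibody is the background. Each condition had 2 eCLIP and 2 input libraries, 8 in all, and was deposited as 1 list of peaks normalised to input whose header names both replicates.

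Most snoRNAs are cut out of the introns of a host gene and then guide chemical modification of other RNAs. Box H/ACA snoRNAs fold into hairpins joined by the H box, end in the ACA box, assemble with dyskerin and guide pseudouridylation. Box C/D snoRNAs carry the C and D boxes near their ends, assemble with fibrillarin and guide methylation of ribose. A few, among them U3, U14 and U22 of the C/D class, serve in the cutting of ribosomal RNA precursors. U11 belongs to the minor spliceosome, where it pairs with the 5′ splice site of the rare U12-type introns.

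The members fell into 3 box H/ACA RNAs (SNORA74A, SNORA6 and SNORA12), 6 box C/D RNAs (SNORD22, SNORD14E, SNORD10, SNORD3A, SNORD88C and SNORD17) and U11. All 10 had a peak in the proliferating list, and 4 also had one in the senescent list: the 3 box H/ACA RNAs and U11. None of the 6 box C/D members had a senescent peak. The set held every snoRNA gene with a proliferating peak but not SNORA4 and SNORD18B, which had a senescent peak alone. The members' counts in the 2 lists therefore cannot be compared. As background, 9 of the 1199 snoRNA genes annotated by RefSeq overlapped a proliferating peak (0.751%) and 5 a senescent peak (0.417%), against 0.154% and 0.482% of all 59792 annotated genes. These background shares count peaks on either strand. By name, 1.65% of 182 SNORA genes and 1.68% of 357 SNORD genes overlapped a proliferating peak, and 2.20% and 0.280% a senescent one. Among 156 snRNA genes the shares were 1.28% and 0.641%. The rule chose members by these peaks, so nothing is read from their counts against the background.

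Both lists leave out weak peaks: the lowest signal values were 3.003 (proliferating) and 3.005 (senescent), and the lowest -log10 p-values 3.06 and 3.51. A missing peak therefore means no listed peak, not an unbound RNA. The amount of each snoRNA in the cells was not measured in these files, and in a bulk sample fewer cells with an RNA and less of it per cell cannot be told apart. The lists carry no value for a single replicate and no read counts, so depth is unknown and every comparison between the lists is a description without a test. Whether the libraries come from separate cultures is not given in the sources used here.

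Peaks on the same strand within 50 nt of each other were merged into sites. The members held 19 proliferating peaks in 11 sites and 14 senescent peaks in 4 sites. They made up 9.40% of the 117 proliferating sites and 1.40% of the 286 senescent sites, or 9.40% and 2.10% when every annotated snoRNA gene was counted; the members were chosen by these peaks, so nothing is read from these shares. The peaks within a member's site lay at most 7 nt apart (proliferating) or 19 nt apart (senescent). The 2 peaks of SNORD17 were separated by 52 nt, just over the merging distance, and stayed 2 sites. Merging only peaks that abut gave 15 proliferating and 8 senescent sites. Cell type markers were looked up only by peaks, because the lists hold no expression levels. Of 11 fibroblast marker genes, 5 had a proliferating peak (COL1A1, COL1A2, COL3A1, COL6A2 and DCN) and 2 a senescent peak (COL6A2 and DCN). COL6A1, FN1, VIM, LUM, PDGFRB and THY1 had none in either list. Of 8 markers of other lung cell types, 0 had a peak in either list. Only 0.154% (proliferating) and 0.482% (senescent) of all annotated genes had a peak, so this absence cannot check the label of the cells.

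**Figure D1:**
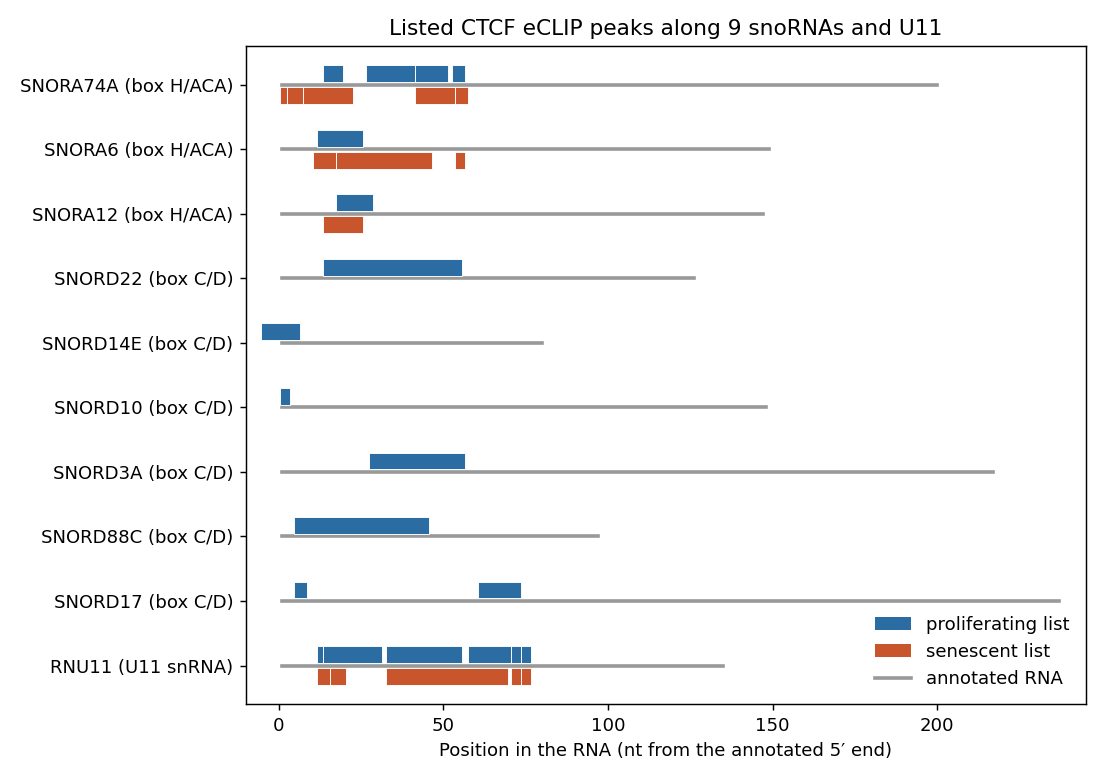
Each grey line is 1 annotated RNA drawn to scale from its 5′ end (horizontal axis, nt), with the listed peaks of the proliferating list above it in blue and those of the senescent list below it in orange. Peaks lie toward the 5′ end of every RNA; the 4 RNAs with orange blocks are SNORA74A, SNORA6, SNORA12 and RNU11.

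Along the RNAs, all 15 sites of the 2 lists had their midpoint in the first 50% of the annotated length. The median midpoint lay at 17.5% of the RNA in the proliferating list (0.625% to 32.6%) and at 18.5% in the senescent list (13.3% to 32.6%). No site reached past 56.3% of its RNA, the end of the U11 site in both lists. Of the 15 sites, 12 began within the first 20 nt, and the others began 6 nt upstream of SNORD14E, at nt 28 of SNORD3A and at nt 61 of SNORD17. The 5′ side was read from the strand of the host gene for 7 members and from the strand of the peaks for SNORD3A, SNORD88C and RNU11; no member had peaks on both strands. Exon positions were not used here, so whether a host's exon or intron holds each peak is not stated beyond the snoRNA itself.

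SNORA74A, an H/ACA snoRNA of 200 nt also known as U19 (chr5:139278780-139278979, plus strand), had 4 proliferating peaks. Their signal values, the authors' score normalised to input on a scale that is not stated, were 7.52 at nt 14 to 19, 7.40 at nt 27 to 41, and 6.87 at both nt 42 to 51 and nt 53 to 56. Its 5 senescent peaks had values of 7.11 at nt 1 to 2, 7.12 at nt 3 to 7, 7.94 at nt 8 to 22, 7.58 at nt 42 to 53 and 7.57 at nt 54 to 57. In each list the highest value was thus near the 5′ end, at nt 14 to 19 and nt 8 to 22, and stood first of all sites. The stretch from nt 20 to 26 had no proliferating peak and the stretch from nt 23 to 41 no senescent peak. The lists shared 20 nt, which is 57.1% of the 35 proliferating and 52.6% of the 38 senescent nt. All 9 peaks stood at the ceiling of 400 for the -log10 p-value against input.

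SNORA74A lies in the shared span of MATR3 (chr5:139274101-139331677), which encodes the nuclear matrix protein matrin 3, and SNHG4 (chr5:139274101-139284900), a long non-coding snoRNA host. Its first base is 4679 nt downstream of the start that both genes share. Another gene over the same bases, LOC124901081, runs on the minus strand, opposite to the peaks. Neither list had a peak elsewhere in any of the 3 genes. The 4 related genes SNORA74D, SNORA74B, SNORA74C-1 and SNORA74C-2, of 144 to 204 nt, had no listed peak either.

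SNORA6, an H/ACA snoRNA of 149 nt (chr3:39408391-39408539, plus strand), had 1 proliferating peak at nt 12 to 25, with a signal value of 5.69 and a -log10 p-value of 39.8. It ranked 3 of the 117 proliferating sites. The senescent site held 3 peaks, with 6.50 at nt 11 to 17, 4.20 at nt 18 to 46 and 4.12 at nt 54 to 56, all at the p-value ceiling, and ranked 6 of 286 sites. The senescent site contained every base of the proliferating one and began 1 nt before it, but ended 31 nt further 3′. Its signal value was high in the first 7 nt and lower in the remainder. The host is RPSA (chr3:39406720-39412542), which encodes a protein of the small ribosomal subunit and had no peak outside SNORA6.

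SNORA12, an H/ACA snoRNA of 147 nt (chr10:100237156-100237302, minus strand), had 1 peak in each list. The proliferating peak covered nt 18 to 28, with a signal value of 4.36 and a -log10 p-value of 41.8. The senescent peak covered nt 14 to 25, with 4.60 and 31.6. They shared 8 nt, 72.7% of the proliferating and 66.7% of the senescent peak. Within its own list the site ranked 22 of 117 and 170 of 286. The host CWF19L1 (chr10:100232298-100267638), related to a yeast splicing factor, had no other peak.

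The H/ACA sites overlapped when the RNAs were lined up at their 5′ ends. In the proliferating list nt 18 to 19 lay in the peaks of all 3, and in the senescent list nt 14 to 22 did. A further H/ACA gene with a senescent peak, SNORA4 (chr3:186787613-186787749), which is not among the 10, was covered at nt 18 to 26 of its 137 nt, which overlaps that stretch without covering its first bases. Its peak had a signal value of 4.99, a -log10 p-value of 87.8 and no proliferating counterpart; it lies in EIF4A2, the gene of a translation initiation helicase. This alignment was chosen after the positions were seen. The proliferating bases were also covered in SNORD22, SNORD88C and RNU11. In the senescent list the C/D gene SNORD18B, not among the 10, was covered at nt 6 to 52, which contains the whole senescent stretch. U11 had senescent peaks at nt 12 to 15 and nt 16 to 20, which cover part of it. Neither stretch therefore sets H/ACA RNAs apart.

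**Figure D2:**
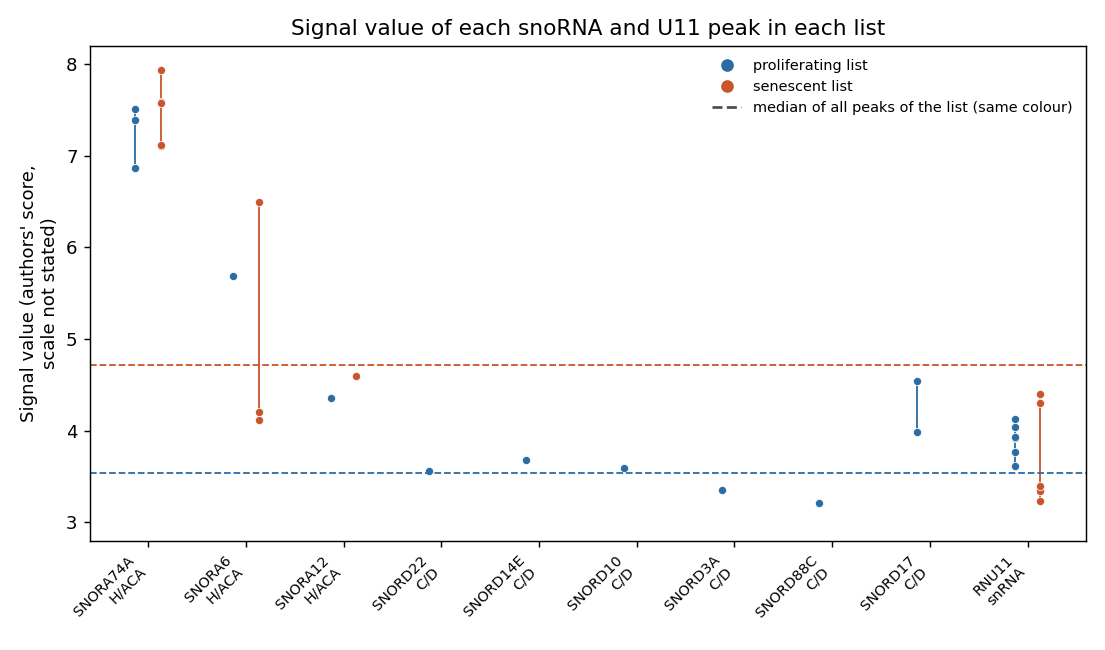
Each point is the signal value of 1 listed peak (vertical axis, the authors' score on a scale that is not stated) for the 10 RNAs in the proliferating list (blue) and the senescent list (orange); lines join peaks of 1 RNA and dashed lines mark the median of all peaks of the list, 3.54 and 4.71. SNORA74A and SNORA6 stand above both medians in their highest peaks, and the 6 C/D RNAs have blue points alone.

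The 6 box C/D members held 7 sites of 1 peak each, all in the proliferating list. Their highest signal values ran from 3.21 to 4.54 with a median of 3.58, near the median of 3.54 over all proliferating peaks. The 3 H/ACA members ran from 4.36 to 7.52 with a median of 5.69, a difference in medians of 2.12 in this list. The ranges overlapped, since SNORD17 at 4.54 exceeded SNORA12 at 4.36. Members were chosen by their peaks and are not replicates, so no test was made. In the senescent list the H/ACA members ran from 4.60 to 7.94, and the C/D members gave no value to set against them.

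SNORD17, of 237 nt (chr20:17962710-17962946, minus strand), had the highest signal value of the C/D members. Its peak at nt 5 to 8 had 4.54 with a -log10 p-value of 38.4, and its peak at nt 61 to 73 had 3.99 with 77.8. The wider peak farther from the 5′ end thus had the lower signal value and the higher -log10 p-value. The host is SNX5 (chr20:17941600-17968794), which encodes a sorting nexin of endosomes.

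SNORD3A is U3 (chr17:19188016-19188232, 217 nt), an abundant snoRNA that works in the early cuts of the ribosomal RNA precursor. Its only peak, at nt 28 to 56, had a low signal value of 3.35, rank 66 of 117 sites, and yet stood at the p-value ceiling. It was the only C/D peak there. The 4 other U3 genes SNORD3B-1, SNORD3B-2, SNORD3C and SNORD3D have the same length of 217 nt and no listed peak; which copy gave the reads is uncertain, since the handling of reads with several matches is not given in the sources used here. SNORD3A was the 1 member without an annotated host or other overlapping gene.

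SNORD22, or U22, also acts in processing of ribosomal RNA (chr11:62852910-62853035, 126 nt, minus strand). Its peak at nt 14 to 55 had a signal value of 3.55 and a -log10 p-value of 38.9 and covered 33.3% of the RNA. The host SNHG1 (chr11:62851978-62855885) is a long non-coding RNA whose introns carry snoRNAs. SNORD88C (chr19:50802325-50802421, 97 nt, peaks on the minus strand) was covered at nt 5 to 45, which is 42.3% of its length, the widest share among the C/D members. Its signal value of 3.21 was the lowest of all members, just above the list's minimum of 3.003, and its -log10 p-value was 16.4. It lies in the transcribed pseudogene C19orf48P (chr19:50797704-50804594) with SNORD88A and SNORD88B, which are also 97 nt long and had no listed peak, so its reads may likewise be shared with copies.

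At SNORD14E and SNORD10 the peak touched only the 5′ edge. SNORD14E is a U14 copy in the chaperone gene HSPA8 (SNORD14E at chr11:123058077-123058156, 80 nt; HSPA8 at chr11:123057489-123062462; minus strand). Its peak was 12 nt wide, of which 6 nt lay upstream of the annotated 5′ end and 6 nt inside, with a signal value of 3.68 and the lowest -log10 p-value of any member, 7.40. The related SNORD14A, SNORD14B, SNORD14C and SNORD14D had none. SNORD10 guides modification of ribosomal and spliceosomal RNA and lies in EIF4A1, another translation initiation helicase gene (SNORD10 at chr17:7576811-7576958, 148 nt; EIF4A1 at chr17:7572825-7579006; plus strand). Its peak covered only nt 1 to 3, with 3.60 and 20.8. In these RNAs the assignment to the snoRNA rests on 6 and 3 bases, and the host's RNA over the same bases was not told apart from it.

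Of the C/D snoRNA genes outside the 10, 1 had a peak. SNORD18B (chr15:66502022-66502091, 70 nt), in the ribosomal protein gene RPL4, had a senescent peak at nt 6 to 52 with a signal value of 3.10 and a -log10 p-value of 14.4. It had no proliferating peak. With SNORA4 and SNORD18B counted, the senescent list held 4 H/ACA and 1 C/D snoRNA genes, and the proliferating list 3 and 6.

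U11 was the member with the longest site. RNU11 (chr1:28648600-28648734, 135 nt) had 6 proliferating peaks between nt 12 and 76, which covered 45.9% of the RNA. Their signal values were 4.04 at nt 12 to 13, 4.12 at nt 14 to 31, 3.77 at nt 33 to 55, 3.61 at nt 58 to 70, 3.92 at nt 71 to 73 and 3.93 at nt 74 to 76. The 5 senescent peaks ran over the same span, from nt 12 to 76, and covered 38.5%. Their values were 3.23 at nt 12 to 15, 3.34 at nt 16 to 20, 3.39 at nt 33 to 69, 4.31 at nt 71 to 73 and 4.40 at nt 74 to 76.

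Some borders of the U11 peaks coincided to the base, with 4 shared starts (nt 12, 33, 71 and 74) and 2 shared ends (nt 73 and 76). The other starts and ends differed. The senescent list had no peak between nt 20 and nt 33, a stretch that overlaps the proliferating peak with the highest value. The 50 shared nt were 80.6% of the 62 proliferating and 96.2% of the 52 senescent nt. The order of the values along the RNA differed: the highest proliferating value was at nt 14 to 31 and the highest senescent value at nt 74 to 76, where nt 12 to 15 had the lowest. Whether this exceeds the spread between replicates could not be tested with 1 list per condition. All 11 peaks were at the p-value ceiling although their signal values were modest, and the site ranked 28 of 117 and 191 of 286.

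The plus-strand lncRNA TAF12-DT (chr1:28643256-28648801) covers U11 on the strand of the peaks and had no peak elsewhere. The 5 annotated U11 pseudogenes, of 129 to 142 nt, had no listed peak. Of a list of 15 minor spliceosome genes, RNU11, chosen by its peaks, was the 1 with a peak in either list. The RNAs RNU12, RNU4ATAC and RNU6ATAC and the 11 protein genes had none. Over all annotated genes the shares with a peak were 0.154% (proliferating) and 0.482% (senescent), so nothing is read from this absence.

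**Figure D3:**
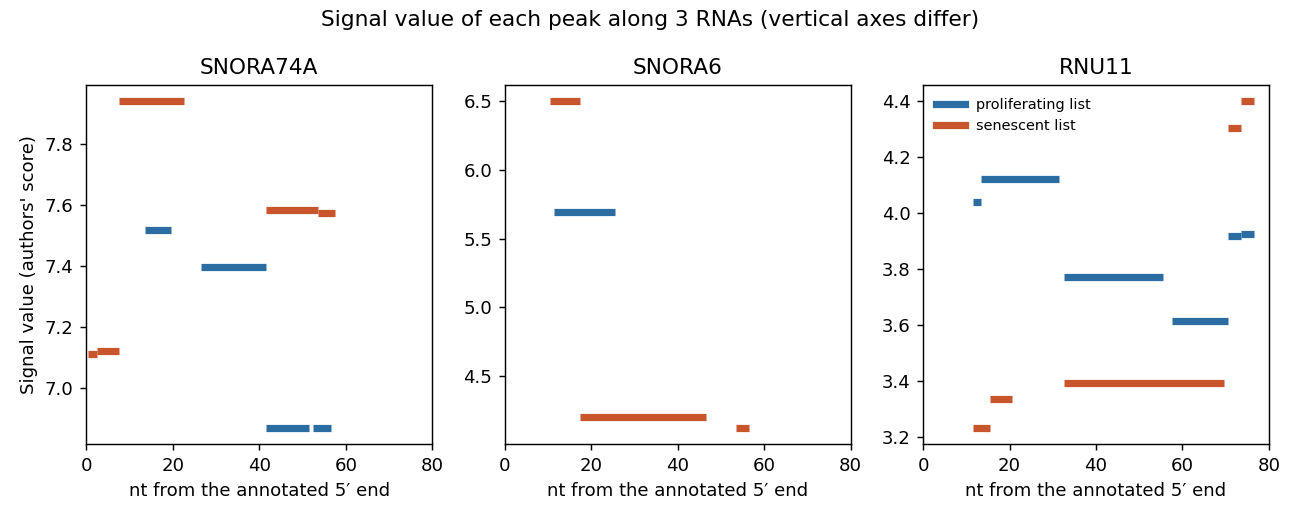
Each bar is 1 listed peak, drawn from its first to its last base (horizontal axis, nt from the annotated 5′ end) at its signal value (vertical axis, the authors' score; the axes differ between panels), blue for the proliferating and orange for the senescent list. In SNORA74A and SNORA6 the highest bars lie near the 5′ end, and in RNU11 the senescent bars are highest at nt 71 to 76.

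The p-value ceiling was reached mostly by these RNAs in the proliferating list. Of the 13 proliferating peaks at 400, 11 (84.6%) lay in U11 (6), SNORA74A (4) and SNORD3A (1), although the members held 12.9% of all peaks. The other 2 lay in RN7SK, the RNA that holds the elongation factor P-TEFb inactive, and in the collagen gene COL1A1. In the senescent list 13 of 36 such peaks (36.1%) lay in the members, 5 each in U11 and SNORA74A and 3 in SNORA6, which held 2.45% of all peaks. Seen the other way, 57.9% of the 19 proliferating and 92.9% of the 14 senescent member peaks were at the ceiling, against 1.56% of the other 128 and 4.12% of the other 558 peaks. These peaks are neighbouring pieces of few sites and not separate cases. Of the 15 member sites of the 2 lists, 6 had every peak at the ceiling. Peaks in the members were narrower, with a median width of 12 nt against 46 nt in the remainder of the proliferating list, and 5 nt against 17 nt in the senescent list. These are widths of single pieces: the merged senescent sites spanned 57 nt (SNORA74A), 46 nt (SNORA6), 12 nt (SNORA12) and 65 nt (RNU11). The width was not used to choose the members, but peaks of 1 RNA share their source, and no test was made.

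**Figure D4:**
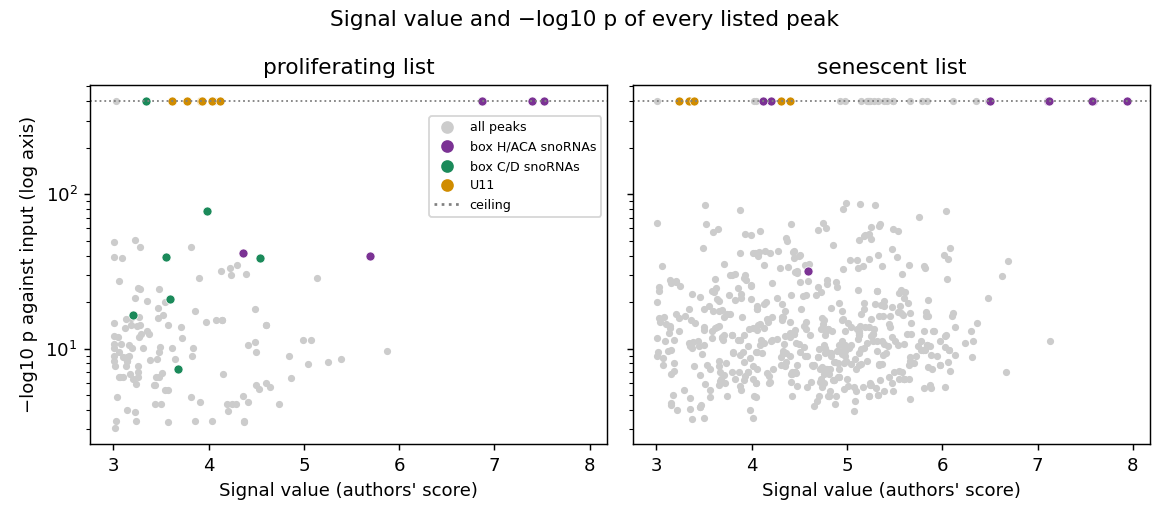
Each point is 1 listed peak. The horizontal axis is its signal value (the authors' score) and the vertical log axis its -log10 p-value against input. Among the members, coloured points mark box H/ACA snoRNAs (purple), box C/D snoRNAs (green) and U11 (orange). Grey points are all other peaks, including those of SNORA4 and SNORD18B. Most coloured points lie on the dotted ceiling of 400, at signal values from 3.23 to 7.94, and 11 of the 13 proliferating peaks there are coloured.

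The host genes had no listed peak outside the snoRNA. Annotated genes contained 9 of the 10 members, and 0 of these 12 genes had a peak elsewhere in their span in either list. From a list of 30 snoRNA host genes, which includes hosts of the members, 9 had a proliferating peak, 8 of them through a member alone. The exception was EEF2, the gene of translation elongation factor 2, with 4 proliferating peaks up to 4.39 and 7 senescent peaks up to 5.49, none in an annotated snoRNA. In the senescent list 7 of the 30 had a peak, of which MATR3, SNHG4, RPSA and CWF19L1 had theirs in a member, EIF4A2 in SNORA4, and EEF2 and CHD8 outside any snoRNA. Over all annotated genes the shares with a peak were 0.154% (proliferating) and 0.482% (senescent). The members were chosen by their peaks, which fixes the counts of their hosts, so nothing is read from these counts.

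Genes for the proteins of these particles had no listed peak. Of 19 genes for snoRNP proteins and assembly factors, among them FBL (fibrillarin), DKC1 (dyskerin), NOP56, NOP58, NHP2 and GAR1, 0 had a peak in either list. Of 11 other snRNA and related genes, RN7SK alone had one, in the proliferating list, at nt 18 to 28 of 332 nt with a signal value of 4.07. The major spliceosomal RNA genes looked up (RNU1-1, RNU2-1, RNU4-1, RNU4-2, RNU5A-1, RNU5B-1 and RNU6-1) had no listed peak. Only 0.154% (proliferating) and 0.482% (senescent) of all annotated genes had a peak, so nothing is read from these absences.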

How the data were processed

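Per the file headers, the authors deposited peaks on hg38 that were normalised to input, 1 list per condition, each named for both replicates. The deposited signal value is a score of unstated scale, and the deposited -log10 p-value ends at 400. The aligner, peak caller, duplicate removal, thresholds and rule for joining replicates are not given in the sources used here. Depth is unknown. RNA abundance was not measured, and its part in which RNAs have a listed peak was not tested.

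Peaks were assigned to RefSeq gene spans (GRCh38.p14, the same assembly) by at least 1 shared base. For the 7 members with a known host strand, the peak had to lie on that strand. Counts over all annotated genes, over the fixed gene lists and of peaks elsewhere in hosts used either strand. Same-strand peaks within 50 nt were merged, with pandas 2.3.3. The gene table has no strand; the strand of the host gene was used for 7 members and that of the peaks for 3. Positions are counted from 1 at the annotated 5′ end. The position and merging steps were tested on simulated RNAs. No tests were made; exact binomial intervals (scipy 1.17.1) served only to judge how far shares moved between alternatives.

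The text names the 10 listed RNAs, genes overlapping their sites, other snoRNA and snRNA genes with a peak, and members of the fixed gene lists with a peak; genes without a peak are named only to state that. The members and lists were chosen with earlier results of these data known. Sequences of the snoRNAs and U11 were not used here.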

Additional observations from a re-analysis of the deposited data

How the results depend on the processing

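Across 10 results and 11 settings, 88 alternatives were computed, of which 20, from 2 settings, were chosen after seeing the data: every annotated snoRNA gene in place of the listed ones, and members with copies of the same length left out. Of the 88, 81 stayed within 1.5 times the count, the counting interval or 1 SD over the RNAs, 7 moved and 0 reversed. The SD limit was wide in the senescent list, with 4 members. There the median percentile rank of the members' highest signal value was 69.6. It counted as unmoved at 98.5 (upper 50% by signal), 55.1 (mean signal weighted by width) and 49.8 (every annotated snoRNA gene). Leaving out SNORD3A and SNORD88C could not move a senescent value, as neither had a senescent peak. Merging only peaks that abut gave 8 senescent sites in place of 4. Using only peaks in the upper 50% of a list by signal, or cutting the senescent peaks to as many as the proliferating ones, left 2 senescent sites and 2 RNAs in both lists, SNORA74A and SNORA6, since fewer peaks remain. The proliferating share of sites rose to 16.4% at a minimum -log10 p-value of 10 and to 18.0% in the upper 50% by signal. Ignoring strand moved no value, as no member has peaks on both strands. The H/ACA and C/D difference has no senescent value because no C/D member had a peak there. No paired analysis was possible because neither file separates the replicates; leaving out each replicate was not run for the same reason. The unknown depth limits every statement on missing peaks.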

Other observations

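Other short RNA genes were searched by annotated class, such as snRNA, tRNA and vault RNA. Pseudogenes and ribosomal RNA genes were not part of this search. Outside the snoRNAs, the genes found with a peak were all in the senescent list, apart from RN7SK. They were looked at after their values were seen. VTRNA2-1 (chr5:136080491-136080598), annotated as a vault RNA and transcribed by RNA polymerase III, had 2 peaks between nt 52 and 95 of 108. Their highest signal value was 3.65 and their highest -log10 p-value 63.7. The tRNA genes TRR-TCG1-1 and TRR-CCT1-1, which read arginine codons, had sites that spanned nt 34 to 78 (2 peaks) and nt 27 to 90 (1 peak) of 73. Their peaks thus ran past the annotated 3′ end. Their highest signal values were 4.13 and 3.09. The site of TRU-TCA1-1, the tRNA that inserts selenocysteine, held 2 peaks and spanned its whole 87 nt, with a highest value of 4.28. The bases covered within the merged sites of these RNAs were not counted. The midpoints of these 4 sites lay at 50.6% to 80.1% of the RNA, the 15 sites of the 9 snoRNAs and U11 at 32.6% or before, that of SNORD18B at 41.4% and that of RN7SK at 6.93%. The strand of these RNAs was taken from their peaks. The difference was not tested.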
